A study of Danio rerio with 20 samples.

Results

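Whole zebrafish (Danio rerio) larvae exposed to 1 mg/L of lithium cobalt oxide (LCO) nanosheets were compared with untreated larvae by RNA sequencing. The comparison took in the 10 libraries whose treatment label was one of these, 5 per group, of the 20 libraries of the series. The other 10 libraries, 5 from larvae given 10 mg/L LCO and 5 from larvae given a treatment labelled ion, entered the model to help estimate the spread and are cited only for reference. All larvae were wild type, were sampled at 10 days post-fertilization and had been fed a powdered larval diet. Exposure lasted 48 hours. Each library came from a pool of 20 larvae, so a value describes the mixed tissues of many animals, and fewer cells of a type cannot be told apart from less RNA per cell. The labels do not say what the untreated water contained, what the ion treatment was made of or whether pools shared parents or tanks, so each p-value reflects the spread between these pools, which may be partly technical.

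LCO is the layered oxide used as a cathode in lithium-ion batteries, and in nanosheet form it can shed lithium and cobalt ions into water. Cobalt is known to block the oxygen-sensing prolyl hydroxylases that mark hypoxia-inducible factors for degradation, and lithium is known to inhibit glycogen synthase kinase 3, an enzyme of the Wnt pathway. A larva of this age hunts and digests food and has working gills, liver and gut, the surfaces and organs at which dissolved metals and particles are met first. Whether any of these pathways changed could not be read from these data. The files list Ensembl transcript identifiers without gene names, and 0 of these 57775 identifiers were found in the gene tables at hand. Transcripts are therefore described by size of change, abundance, length and behaviour across pools, no gene or cell type is named, and the labelled tissue could not be checked against markers. Only 2 rising and 2 falling transcripts are given by identifier.

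Depth was between 32568900 and 63120000 estimated counts per control library and between 30439900 and 52060300 per exposed library. Of 4 technical measures, none differed between the groups by an exact two-sided permutation test after adjustment over the 4. The nearest were the number of transcripts with at least 1 estimated count, 44555 ± 766 in controls and 43688 ± 578 at 1 mg/L (SD, n = 5, exact permutation p = 0.0714, adjusted p = 0.143), and the gap between transcript length and effective length, a measure of fragment length taken as the median over transcripts longer than 3000 bases. That gap was 152 ± 5.98 bases in controls and 161 ± 4.39 bases at 1 mg/L (SD, n = 5, exact permutation p = 0.0635, adjusted p = 0.143). Within the exposed group it was 167 and 164 bases in replicates 1 and 2 and 157 to 159 bases in replicates 3, 5 and 6. Replicates 1 and 2 also stood apart from replicates 3, 5 and 6 in expression. On the first principal component of the 10 libraries, which held 22.8% of the variance, controls scored from -76.4 to -34.7. Exposed replicates 3, 5 and 6 scored from 10.6 to 22.9, and exposed replicates 1 and 2 scored 96.0 and 118. On the second, which held 15.3%, controls scored from 6.03 to 58.5 and exposed replicates 1 and 2 scored 38.4 and 52.1. There exposed replicates 3, 5 and 6 lay below all controls, at -47.3, -85 and -86.1. Counts of calls at 1 mg/L against control and the trend with length are therefore also given without replicates 1 and 2, and with the gap as a covariate. Transcripts lost in all exposed pools are also counted without those replicates, though that count can then only stay the same or rise. Most other results are given with all 5 exposed pools only.

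Falls outnumbered rises at 1 mg/L and went much further. Of 39355 transcripts tested, 5016 (12.7%) were called by edgeR at a Benjamini-Hochberg adjusted p under 0.05, 3308 lower (8.41%) and 1708 higher (4.34%). Without exposed replicates 1 and 2 there were 2050 lower and 1062 higher, and with the gap as a covariate 1948 lower and 701 higher. The median called fall was 1.70-fold, with the middle 80% between 1.27-fold and 3.37-fold, and the median called rise was 1.22-fold, with the middle 80% between 1.15-fold and 1.42-fold. Both medians were the same with transcripts at 0 throughout a group set to their bound. Among the falls, 1137 (2.89% of those tested) were at least 2-fold and 241 at least 4-fold. Among the rises, 36 (0.0915%) were at least 2-fold and 15 at least 4-fold, and the 36 became 55 without control replicate 2 and 75 with DESeq2. Of the 36 larger rises, 16 lay in the lowest decile of control abundance, and 7 called rises were at 0 counts in every control. The balance of directions was sensitive to the method, since DESeq2 called 3154 higher and 3946 lower, and the number of rises was 987 with only the 2 groups fitted, 992 without control replicate 3 and 1067 without control replicate 4.

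The difference in size was clearest when the test itself asked for a minimum change. With edgeR's glmTreat, which tests against a fold rather than against no change, 680 transcripts (1.73%) differed by more than 1.5-fold at an adjusted p under 0.05. Of these, 678 were lower (1.72%) and 2 were higher (0.00508%). The 678 had a median fall of 2.79-fold, with 10% of them beyond 6.03-fold. At an unadjusted p under 0.05 the same test gave 1933 lower and 160 higher. Without exposed replicates 1 and 2 the counts were 305 lower and 4 higher, and 372 lower and 12 higher when the gap entered as a covariate. Falls outnumbered rises in each of 16 alternatives, with 305 to 799 falls beyond 1.5-fold and 0 to 12 rises.

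**Figure D1:**
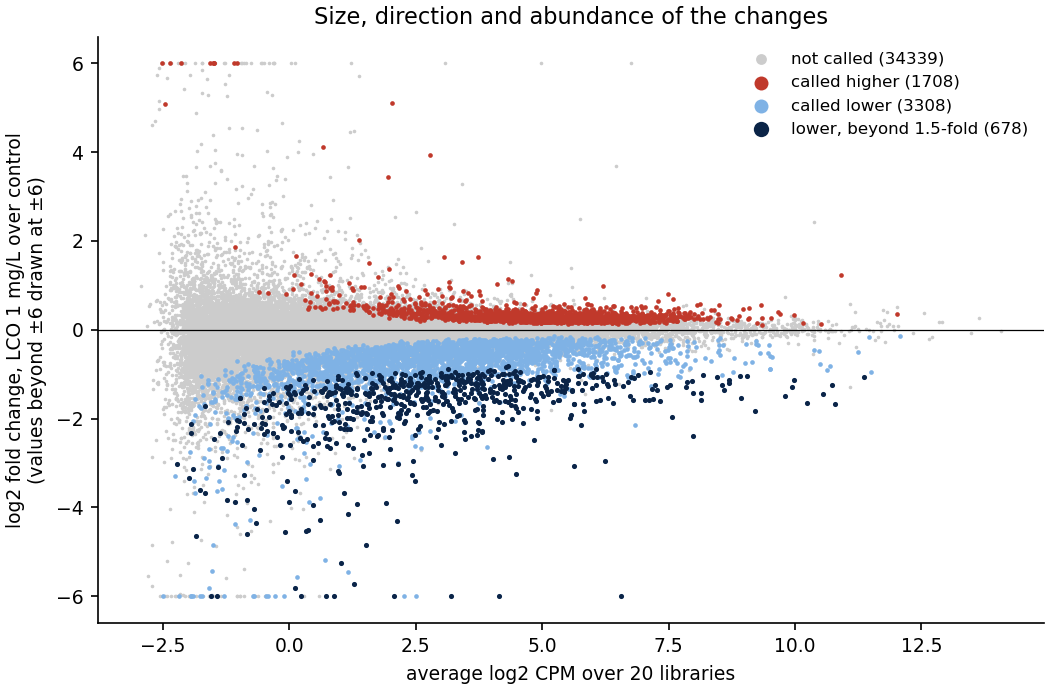
Each point is 1 of the 39355 transcripts tested, with the average log2 CPM over 20 libraries on the horizontal axis and the fitted log2 fold change of LCO 1 mg/L over control on the vertical axis, values beyond 6 in size drawn at the edge. Called rises (red, 1708) form a thin band above 0 and called falls (light blue, 3308) reach further from 0, the 678 falls beyond 1.5-fold being drawn dark.

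The 2 rises beyond 1.5-fold were both scarce. One, a transcript of 749 bases, was at 0 in all 5 controls and at 0.224, 1.07, 0.598, 0.391 and 0.214 CPM (counts relative to library size, TMM scaled) in exposed replicates 1, 2, 3, 5 and 6. The other, of 843 bases, was at 0 in all 5 controls and at 0.448, 0.548, 1.17, 1.58 and 1.07 CPM in the same order. The groups did not overlap in either case, though the values rest on as few as 7 and 14 counts in a library. Against a floor of 3 counts over the control group, by counting error only, the group means were at least 37.3-fold and 71.9-fold higher. Neither was called beyond 1.5-fold with the replicate number as a block, where 0 rises were. Both had 0 counts in every control and passed the filter on low counts only through exposed libraries, so no p is given for them.

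Among called transcripts with an average log2 CPM of at least 1, the falls with the smallest p-values were moderate in size and very even across pools. Ranking by p favours transcripts with little spread between pools, so this evenness describes only the transcripts picked. ENSDART00000172985.2, of 4738 bases, was at 23.3, 23.7, 27.2, 24.0 and 23.6 CPM in the 5 controls and at 11.9, 11.1, 11.8, 11.9 and 12.3 CPM in exposed replicates 1, 2, 3, 5 and 6. Every exposed pool was at about the same level, less than every control. It fell by 1.05 on the log2 scale (SE 0.07, edgeR adjusted p = 1.15e-07), a 2.07-fold change. ENSDART00000073654.4, of 5619 bases, was at 24.96, 24.5, 27.7, 28.5 and 27.9 CPM in controls and at 7.74, 7.87, 10.6, 7.69 and 9.75 CPM in the exposed pools. Again the groups were far apart, with exposed replicates 3 and 6 a little higher than the other exposed pools. This transcript fell by 1.61 on the log2 scale (SE 0.11, edgeR adjusted p = 1.15e-07), a 3.06-fold change.

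The rises with the smallest p-values were small changes, in well-measured transcripts of the kind that the same ranking favours. ENSDART00000134864.2, of 3868 bases, was at 62.7, 62.1, 59.2, 61.2 and 60.2 CPM in controls and at 79.5, 80.1, 70.9, 82.3 and 73.9 CPM in exposed replicates 1, 2, 3, 5 and 6. The control values were within a narrow range and all exposed values lay above it, with a log2 fold change of 0.34 (SE 0.04, edgeR adjusted p = 3.34e-05), or 1.27-fold. ENSDART00000133976.3, of 1663 bases, was at 221, 204, 216, 242 and 200 CPM in controls and at 326, 334, 319, 321 and 320 CPM in the exposed pools. Here the exposed pools were closer to each other than the controls were, and the log2 fold change was 0.58 (SE 0.07, edgeR adjusted p = 3.44e-05), or 1.5-fold.

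**Figure D2:**
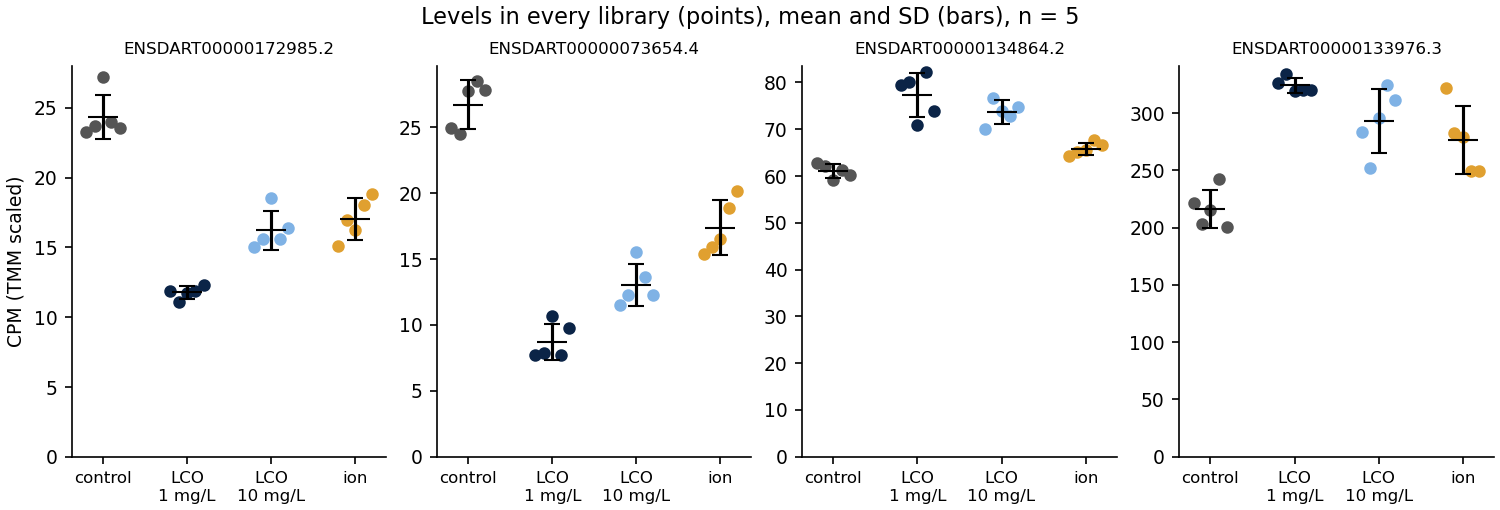
Each panel plots the level of 1 transcript in CPM for the 4 groups, with points for libraries and bars for mean and SD (n = 5). In the left pair the exposed pools at 1 mg/L lie below all controls (11.1 to 12.3 against 23.3 to 27.2 CPM, and 7.69 to 10.6 against 24.5 to 28.5 CPM), and in the right pair above them (70.9 to 82.3 against 59.2 to 62.7 CPM, and 319 to 334 against 200 to 242 CPM).

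Very abundant transcripts were also among the falls. Levels between transcripts are compared here per length, in TPM (transcript abundance scaled to length and depth) averaged over controls. The called fall with the highest such level, a transcript of only 165 bases for which TPM depends strongly on the effective length, had 9262 ± 1059 TPM in controls (SD, n = 5). In CPM it was at 279, 292, 402, 391.8 and 353 in controls and at 174, 161, 244, 228 and 262 in the exposed pools, a 1.61-fold fall (edgeR adjusted p = 0.00661). All exposed pools were lower than all controls.

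The next 2 were of similar length and level, 871 and 879 bases with 6235 ± 593 and 5688 ± 628 TPM in controls (SD, n = 5). The longer was at 3366, 4107, 3011, 4098 and 3718 CPM in controls and at 1201, 1588, 1978, 2163 and 1821 CPM in exposed replicates 1, 2, 3, 5 and 6, a 2.09-fold fall (edgeR adjusted p = 2.06e-05). The shorter fell 1.93-fold, from a range of 3364 to 4389 CPM to one of 1290 to 2548 CPM (edgeR adjusted p = 9.93e-05). In both the lowest exposed pool was replicate 1 and the groups were well separated.

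The most abundant called rise by TPM, of 1584 bases and 2825 ± 177 TPM in controls (SD, n = 5), went from between 3307 and 3811 CPM to between 4221 and 5069 CPM, a 1.29-fold change (edgeR adjusted p = 0.0157). The second, of 1003 bases and 1853 ± 59.5 TPM, went from between 1304 and 1474 CPM to between 1481 and 1613 CPM, a 1.099-fold change close to the threshold (edgeR adjusted p = 0.0473). The third, of 751 bases and 584 ± 49.7 TPM, went from between 281 and 351 CPM to between 323 and 427 CPM, a 1.29-fold change (edgeR adjusted p = 0.00301) with 1 exposed pool, replicate 2, inside the range of the controls.

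As a share of all counts, the 3308 called falls made up 13.4 ± 0.652% in controls and 8.08 ± 0.735% at 1 mg/L (SD, n = 5). For the 678 falls beyond 1.5-fold the shares were 4.04 ± 0.375% and 1.59 ± 0.274%, and for the 1708 rises 8.72 ± 0.305% and 10.99 ± 0.522%. These transcripts were chosen for their difference, so the shares describe how much of a library they carried and are not tested.

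Loss was usually partial. Relative to the mean CPM of controls, 1631 of the 3308 called falls (49.3%) were left at 50 to 75%, 897 at 25 to 50%, 535 at 75% or more, 201 at 5 to 25% and 44 (1.33%) at less than 5%. The median called fall left 58.6% of the control level. Of the 678 falls beyond 1.5-fold, the median left 35.9%, 497 were left at 25 to 50% and 20 at less than 5%. The 44 nearly lost transcripts were mostly scarce ones, with a median of 1.97 CPM in controls. In 16 of them the control mean was below 1 CPM and in 5 it was 10 CPM or more.

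**Figure D3:**
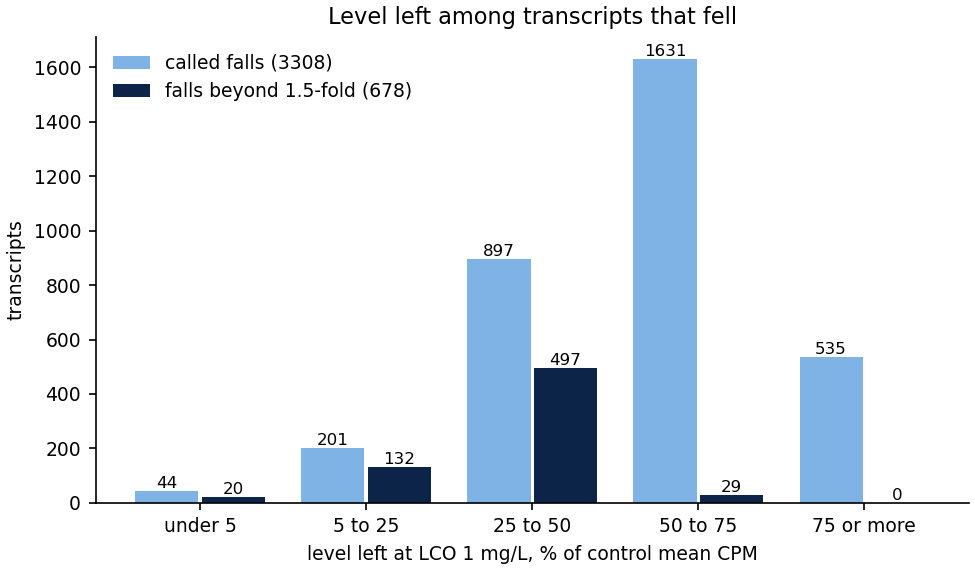
Bars count transcripts by the level left at LCO 1 mg/L as a percentage of the control mean CPM, for all 3308 called falls (light) and for the 678 falls beyond 1.5-fold (dark). The largest light bar is at 50 to 75% (1631 transcripts), the largest dark bar at 25 to 50% (497), and the bars under 5% hold 44 and 20.

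Among the called falls, 17 had 0 rounded counts in all 5 exposed pools, at any level in controls. A total of 6 transcripts had at least 10 counts in each control and 0 rounded counts in all 5 exposed pools, and 1 transcript showed the reverse. A count of 0 in each library of the exposed group allows a level of up to 0.0151 CPM at a floor of 3 counts over the group, by counting error only. The most abundant, of 1251 bases, was at 212, 251, 152, 370 and 243 CPM in controls, where it had at least 7631 counts per library. The second, of 792 bases, was at 52.6, 23.7, 45.8, 75.1 and 68.6 CPM in controls. These 2 were at least 16282-fold and 3525-fold lower at 1 mg/L by that floor. The floor leaves out how reads are shared among similar transcripts, so these folds and those of the other losses describe estimated counts only.

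The other 4 were scarcer or uneven in controls. One, of 795 bases, was at 8.48, 33.3, 1.57, 17.1 and 1.05 CPM in controls, low in replicates 3 and 5, and was at least 815-fold lower. Another, of 1542 bases, was at 1.42, 3.58, 0.995, 4.82 and 0.661 CPM, and one of 1396 bases was at 1.30, 1.254, 3.44, 2.36 and 3.03 CPM, and these were at least 152-fold and 151-fold lower. The last was long, 6496 bases, but had only 0.340 to 0.673 CPM in controls, or 12 to 31 counts per library, and was at least 32.6-fold lower. The 6 were chosen for their values in these same libraries, so no test of them against control is given.

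Levels in the other groups are given for reference. At 10 mg/L the most abundant of the 6 averaged 34.9 ± 21.6 CPM and under ion 97.9 ± 25.4 CPM (SD, n = 5). The second averaged 2.09 ± 2.88 and 15.3 ± 15.1 CPM in the same order. In the most abundant, replicate 4 of 10 mg/L was at 0 counts, where the other libraries of that group had 862 to 1388. In the second, replicates 2, 4 and 6 of 10 mg/L were at 0. Those of 795 and 1542 bases had 0 rounded counts in each library of 10 mg/L too, and averaged 6.71 ± 6.25 and 0.386 ± 0.533 CPM under ion. Ion replicates 1 and 2 were at 0 in that of 795 bases, and ion replicates 1, 2 and 3 in that of 1542 bases. The transcript of 6496 bases averaged 0.432 ± 0.495 CPM at 10 mg/L, 0.474 ± 0.482 CPM under ion and 0.492 ± 0.147 CPM in controls. It was at 0 in replicates 3 and 6 of 10 mg/L and in ion replicate 3. The transcript of 1396 bases averaged 0.122 ± 0.272 CPM at 10 mg/L, where 4 libraries were at 0. Under ion it averaged 0.992 ± 1.34 CPM, with replicates 2 and 3 at 0. By the same rule 6 transcripts were completely lost at 10 mg/L and 1 under ion, against the same controls.

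Loss in some pools only was more frequent than loss in all. Of 33597 transcripts with at least 10 counts in every control, 685 (2.04%) were at 0 in at least 1 exposed pool, of which 464 in 1 pool, 159 in 2, 41 in 3, 15 in 4 and 6 in 5. In the reverse direction, 305 of 32308 transcripts present in every exposed pool (0.944%) were at 0 in at least 1 control, and 12 in 3 or more, against 62 for loss under exposure. Controls had the higher mean total, 45086900 against 39610300 estimated counts, and the part of depth in these zeros was not tested. The same counts of loss in at least 1 pool were 787 at 10 mg/L and 466 under ion, against the same 5 controls. The number of complete losses was 11 without control replicate 1, 13 without exposed replicate 3 and 16 without exposed replicates 1 and 2. Leaving out a library removes a condition, so this number could only stay the same or rise. It therefore cannot show whether the losses depended on those pools.

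The falls were shared by the 5 pools but not equally deep in them. Relative to the control mean, the median difference over called falls was -0.82, -0.95, -0.56, -0.76 and -0.65 on the log2 CPM scale in exposed replicates 1, 2, 3, 5 and 6, against medians between -0.0073 and -0.0027 over all transcripts tested. Over the falls beyond 1.5-fold the medians were -1.67, -1.73, -1.12, -1.46 and -1.44. Replicate 2 was the lowest of the 5 pools in 44.9% of the called falls and replicate 1 in 25.4%, while replicate 3 was the lowest in 4.72%. Called rises had medians of 0.28, 0.38, 0.24, 0.31 and 0.22 in the same order, and replicate 2 was the highest pool in 49.7% of them. The called transcripts were chosen with these same pools, and the lowest or highest pool was not counted over all transcripts tested. Over those, replicate 2 lay below all controls in 30.4% and above them in 29.6%. Both shares were the largest among the exposed pools, so its position is not particular to the called transcripts. Replicates 1 and 2 had the largest fragment length gaps of the 10 libraries compared. Among the other 10 libraries, ion replicate 4 and replicates 2 and 6 of 10 mg/L had gaps of 168, 166 and 164 bases. Their medians over the same called falls were -0.13, -0.55 and -0.54. Libraries ranged from -0.27 to -0.13 under ion and from -0.55 to -0.36 at 10 mg/L, and the part of the gap was not tested.

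**Figure D4:**
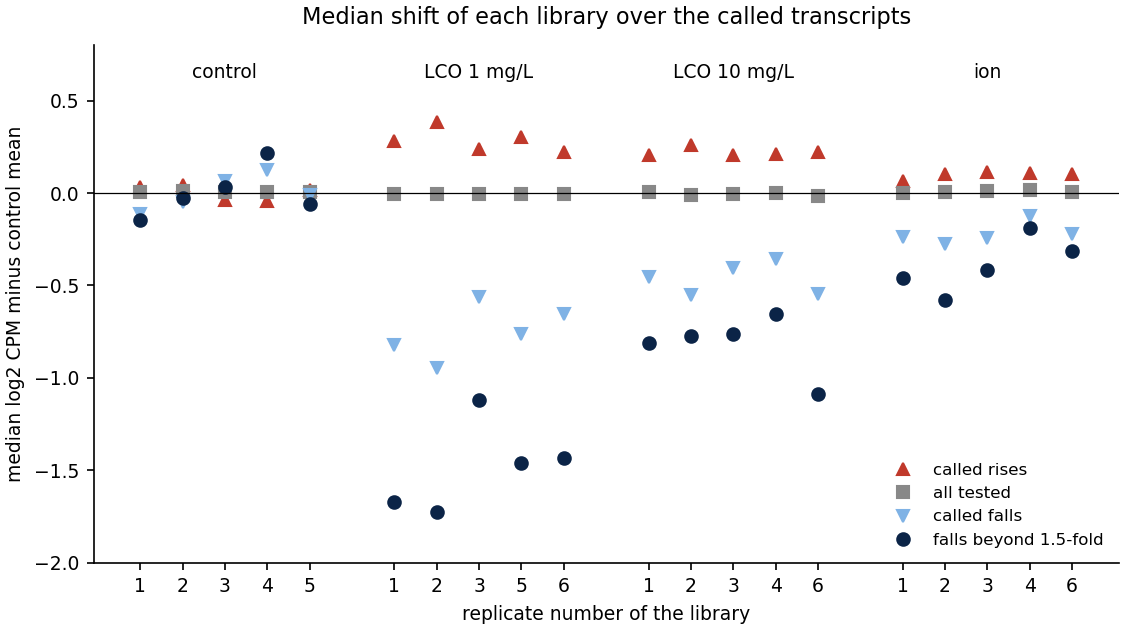
For each of the 20 libraries, points give the median difference in log2 CPM from the control mean over called rises, all transcripts tested, called falls and falls beyond 1.5-fold, all chosen on LCO 1 mg/L against control. At 1 mg/L all 5 pools lie below 0 for falls (medians from -0.95 to -0.56) and above 0 for rises (0.22 to 0.38), with replicate 3 the least shifted in falls, while the medians over all transcripts stay near 0.

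In 2406 of the 3308 called falls all 5 exposed pools lay below all 5 controls, and in another 651 exactly 4 did. Among the falls beyond 1.5-fold this held for 668 of 678. Over all transcripts tested, the 5 exposed pools lay below all controls in 2760 (7.01%) and above them in 1226 (3.12%). Exactly 4 exposed pools lay below all controls in 2180 (5.54%) and above them in 2314 (5.88%). For the called rises, 945 of 1708 had no overlap and 617 had 4 pools above all controls. Since calling uses the same values, these counts describe the called transcripts and support nothing further. Pools varied more under exposure than in controls, with a median SD of log2 CPM over all transcripts of 0.29 at 1 mg/L and 0.22 in controls, and of 0.37 and 0.25 over the falls beyond 1.5-fold. The exposed SD includes the distance of replicates 1 and 2 from the other exposed pools on the first principal component, and the part of that split was not tested. Exposed libraries also had the lower mean total of counts. The falls were chosen for low exposed levels, where counting error is larger on the log scale. The part of counting error in the SD was not tested either.

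To read the consistency in libraries that had no part in the test, transcripts were called without 1 exposed pool and 1 control. The direction was then read between the 2 libraries left out, for all 25 such pairs. The filter on low counts still used all 20 libraries. Called falls numbered 1926 to 3367. Of these a median of 96.4% was lower in the left-out exposed pool than in the left-out control (80.7 to 98.3% over the pairs), where 51.2% of all transcripts tested were (50.2 to 53.6%). The median difference over the called falls was -0.77 on the log2 scale between the left-out libraries (-1.24 to -0.34), and -0.87 in the libraries that made the call.

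Falls beyond 1.5-fold held in 99.5% of cases (91.5 to 100%, of 323 to 854 transcripts), with a median difference of -1.48 between the left-out libraries. Rises were less even. Of 583 to 2231 called rises, a median of 88.9% was higher in the left-out exposed pool (58.4 to 96.0%), where 48.8% of all transcripts were, and the median difference was 0.22, against 0.32 in the libraries that made the call. By pool left out, the median share of falls that held was 97.1, 97.5, 94.0, 97.1 and 93.6% for replicates 1, 2, 3, 5 and 6. The corresponding share of rises was 86.0, 91.1, 88.8, 93.2 and 75.7%, so exposed replicate 6 followed the rises of the other pools least. The lowest value for falls, 80.7%, came from exposed replicate 3 paired with control replicate 1. The pairs share most libraries and are not independent of each other.

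Falls and rises were both called at every level of abundance, and both more often among abundant transcripts. From the lowest to the highest decile of control TPM, the share of transcripts called lower went from 1.17 to 15.3% and the share called higher from 0.559 to 10.2%. The share with a fall beyond 1.5-fold went from 0.0762 to 3.84%. More counts give a test more power, so these shares do not compare true frequencies between levels. The median called fall was 2.71-fold in the lowest decile and 1.58-fold in the highest. The median called rise was 19.2-fold in the lowest decile, which held 22 rises, 1.91-fold in the next and 1.20-fold in the highest. Few counts let only large changes be called, and 7 called rises were at 0 counts in every control, where a fitted fold has no firm size. These medians therefore do not compare true sizes of change between levels.

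Direction also differed with transcript length. The median log2 fold change over all transcripts went from -0.049 in the shortest decile (89 to 708 bases) to 0.098 in the longest (5068 bases or more). Called rises made up 1.17% of the shortest decile and 11.1% of the longest, while called falls peaked at 11.3% in the decile of 1525 to 1857 bases and were 5.67% of the longest. Transcripts of the longest tercile had a higher median than those of the shortest within each tercile of abundance. In the most abundant tercile, above 5.50 TPM, the median went from -0.036 for transcripts up to 1317 bases to 0.11 for those longer than 2602 bases, and rises from 3.33 to 18.6% of transcripts. In the scarcest tercile the median went from -0.074 to -0.020. At equal TPM a longer transcript has more counts, which gives a test more power. The shares called therefore do not compare true frequencies between lengths, also within a tercile of abundance.

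**Figure D5:**
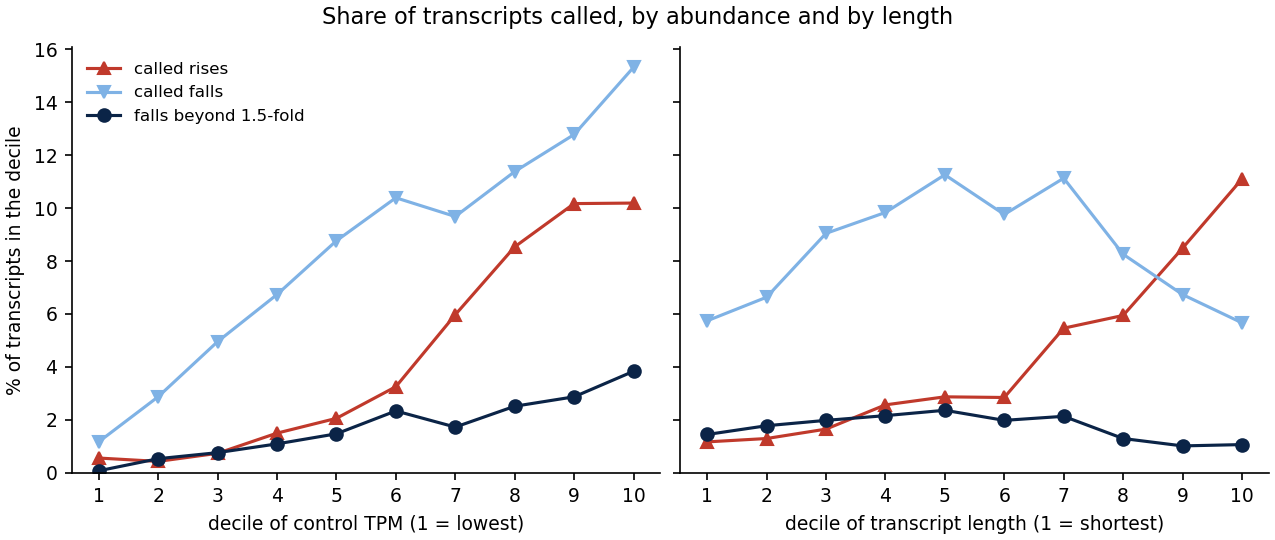
The vertical axis is the percentage of transcripts in each decile that were called higher, called lower or lower beyond 1.5-fold, by control TPM (left) and by transcript length (right). All 3 shares are higher in the top decile of abundance than in the lowest, falls at 15.3 against 1.17% and rises at 10.2 against 0.559%, while with length rises climb from 1.17 to 11.1% and falls peak in the middle at 11.3%.

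Measured per library, the median log2 CPM of the longest decile exceeded that of the shortest by 3.58, 3.58, 3.59, 3.61 and 3.64 in controls and by 3.84, 3.86, 3.66, 3.73 and 3.61 in exposed replicates 1, 2, 3, 5 and 6. Exposed replicates 1 and 2 were the highest and replicate 6 lay within the range of the controls. The means were 3.6 ± 0.025 and 3.74 ± 0.11 (SD, n = 5, exact two-sided permutation p = 0.0159, a comparison chosen after seeing the data). The fragment length gap was largest, at 167 and 164 bases, in those replicates 1 and 2 of the 10 libraries. Over the 20 libraries, those with gaps of 162 to 168 bases had values from 3.77 to 3.88. They were exposed replicates 1 and 2, replicates 2, 3 and 6 of 10 mg/L, and ion replicate 4. The others, with gaps of 144 to 159 bases, had values from 3.58 to 3.73, except ion replicate 6. That library had 3.83 at a gap of 156 bases. Within controls the values were 3.59, 3.61, 3.58, 3.64 and 3.58 at gaps of 144, 150, 152, 158 and 158 bases. The cause of this pattern was not tested. When the gap was a covariate the median log2 fold change was -0.004 in the shortest decile and 0.037 in the longest, and called rises had a median length of 2559 bases in place of 3288. The 1948 falls called in that fit had a median of 1.88-fold. Without replicates 1 and 2 the medians of the shortest and longest deciles were -0.038 and 0.036.

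Against the other exposures, 83 transcripts were lower (0.211%) and 1 was higher (0.00254%) at 1 mg/L than at 10 mg/L by edgeR, and 1751 were lower (4.45%) and 629 higher (1.6%) at 1 mg/L than under ion. Beyond 1.5-fold by glmTreat, 1 transcript was lower (0.00254%) and 0 were higher at 1 than at 10 mg/L, with 428 lower and 123 higher at an unadjusted p under 0.05, and 161 were lower (0.409%) and 3 higher (0.00762%) at 1 mg/L than under ion. For reference, glmTreat called 3 falls (0.00762%) and 0 rises at 10 mg/L against the same controls, with 843 falls and 246 rises at an unadjusted p under 0.05, where edgeR's test against no change called 1572 and 898. Over the 678 falls beyond 1.5-fold, the median fall of 2.79-fold stood beside 1.77-fold for the higher dose and 1.32-fold for ion, all against the same controls and with the transcripts chosen at 1 mg/L.

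The identified falls were also deepest at 1 mg/L. ENSDART00000172985.2 averaged 11.8 ± 0.444 CPM at 1 mg/L, against 24.3 ± 1.61 in controls, 17.1 ± 1.48 under ion and 16.2 ± 1.39 at 10 mg/L (SD, n = 5). ENSDART00000073654.4 averaged 8.74 ± 1.37, 26.7 ± 1.84, 17.4 ± 2.07 and 13.0 ± 1.59 CPM in the same order. Both were lower in the 1 mg/L pools than in those of the higher dose (edgeR adjusted p = 0.0158 and 0.0328) and lower than under ion (0.000208 and 9.46e-05), tests that share the 5 libraries of 1 mg/L with the comparison that chose them. The rises differed less between the doses. ENSDART00000134864.2 averaged 77.3 ± 4.75 CPM at the lower dose, 73.7 ± 2.47 at the higher dose and 65.8 ± 1.31 under ion, and ENSDART00000133976.3 averaged 324 ± 6.23, 293 ± 27.9 and 276 ± 29.7 CPM. Neither difference between the doses passed (edgeR adjusted p = 0.730 and 0.646), with log2 differences of 0.07 (SE 0.04) and 0.14 (SE 0.07).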

How the data were processed

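The authors deposited 1 table per library with length, effective length, estimated counts (expected counts) and TPM of the same 57775 transcripts. The submitters' processing notes name FastQC 0.11.5, cutadapt 1.18, kallisto 0.45.0 and build GRCz11, and settings are not given in the sources used here. Kallisto shares reads among similar transcripts, so a change of the gene and a shift of reads from one transcript to another cannot be told apart. In each library of the 10, 59.99% to 65.01% of all 57775 estimated counts, zeros included, were not exactly whole.

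After rounding, the tests ran in edgeR 4.0.16 under R 4.3.3: filterByExpr (minimum count 10, 39355 transcripts kept), TMM scaling, and 1 quasi-likelihood fit with a group factor over the 20 libraries. glmQLFTest gave two-sided calls at a Benjamini-Hochberg adjusted p under 0.05, and glmTreat tested a minimum fold of 1.5. Standard errors are the log2 fold change over the square root of F. Deposited TPM served only to compare levels between transcripts. Alternatives used DESeq2 1.42.0 and limma 3.58.1. Log2 CPM for pools and components used a prior count of 2. For the left-out pairs, the filter on low counts and the TMM factors of the 2 libraries left out came from all libraries.

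Identified transcripts are the 2 smallest p-values per direction with an average log2 CPM of at least 1. Others, chosen as complete losses or by control TPM, go without identifier. Members, lists and tests were chosen with earlier results of these data known. Gene lists and cell type markers could not be used without gene names, and no sequence was printed. No 2 libraries of a group held the same values, and the lowest ratio of chi-square to its degrees of freedom over the 20 pairs was 13.8. Among tested transcripts, 208 repeated the counts of another. The tests were also run on counts simulated from the fitted means and spread with independent libraries. Such counts hold no split between exposed pools, so that run cannot show how the tests behave under it.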

Additional observations from a re-analysis of the deposited data

Results flagged for a closer look

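Of 47 sets of 5 values examined, 1 held a library far from the others (Dixon ratio 0.808), where chance gives about 1 in 20. In ENSDART00000172985.2, control replicate 3 was at 27.2 CPM and the other controls at 23.3 to 24.0 CPM.

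Some effects against control differed between exposures by edgeR's direct test, which shares the libraries of 1 mg/L with the comparison that chose the transcripts. Between 1 and 10 mg/L the adjusted p was 0.0158 for ENSDART00000172985.2 and 0.0328 for ENSDART00000073654.4. Between 1 mg/L and ion it was 0.000208 and 9.46e-05 for those falls, 0.00277 for ENSDART00000134864.2, and 0.000245, 0.00593, 0.049 and 0.0217 for the complete losses of 1251, 792, 1396 and 6496 bases. It was also 0.0169 and 0.00496 for the abundant falls of 871 and 879 bases and 0.0391 for the abundant rise of 751 bases. The complete loss of 1251 bases was flagged against both exposures, and those of 792, 1396 and 6496 bases against ion. All were chosen for being at 0 in every pool of 1 mg/L, and the adjusted p-values listed for these losses use those same zeros. The values are listed only as flags. They are no evidence that these losses differed between 1 mg/L and 10 mg/L or ion. In each transcript flagged against ion, the mean at 1 mg/L lay further from the control mean than that under ion. The choice of these transcripts by their values at 1 mg/L favours this order, so it shows nothing further. Single libraries of 1 mg/L and ion overlapped only in the losses of 1396 and 6496 bases and the rise of 751 bases. In the loss of 1396 bases 2 ion libraries were at 0, in that of 6496 bases 1 was, and in the rise of 751 bases exposed replicate 2 (323 CPM) was below ion replicate 2 (360.5 CPM).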

How the results depend on the processing

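The falls of at least 2-fold ranged from 801 to 1267 over 18 alternatives, around 1137. The count of rises, 1708, was 987 with only the 2 groups fitted and 3154 with DESeq2, which also gave 75 rises of at least 2-fold in place of 36. Leaving out 1 library gave 992 to 1990 rises, 29 to 55 rises of at least 2-fold (55 without control replicate 2), 3554 to 5367 calls, 489 to 803 calls beyond 1.5-fold and 6 to 13 complete losses. With at least 50 counts required in each control there were 3 complete losses. Fewer libraries can only keep or raise the number of complete losses, and a higher minimum can only keep or lower it.

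Added after seeing the data, leaving out exposed replicates 1 and 2 together gave 3112 calls (1062 higher, 2050 lower), 309 beyond 1.5-fold and 16 complete losses, with fewer samples. The fragment length gap as a covariate gave 2649 calls (701 higher, 1948 lower) and 384 beyond 1.5-fold, and the cause was not tested.

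The labels number replicates in both groups, but the deviations of same-numbered libraries were little correlated in any pair (r from 0.00 to 0.11 over 4 shared numbers). With replicate number as a block, 4000 transcripts were called (1234 higher, 2766 lower), 970 falls and 26 rises were at least 2-fold, and 557 calls were beyond 1.5-fold. Of 4 exposed replicates with a shared number, only replicate 2 correlated best with its own number. Depth limits what a zero can show, since 0 counts in all exposed pools allow up to 0.0151 CPM.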
